A study of Homo sapiens with 10 samples.

Results

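The unfolded protein response and ATF4 stress genes are a set of 38 genes chosen by symbol, and 36 of them have a probe that carries a single gene symbol. HSP90B1 and PDIA3 were measured only on probes shared with other genes and have no values here. Where a gene had several such probes, the one with the highest mean was used. All 36 measured members passed the filter on low signal, out of 14232 genes with such a probe and 11198 that passed. They fall into an endoplasmic reticulum (ER) chaperone arm of 18 measured genes (11 for protein folding and 7 for degradation), 4 stress sensors or their direct effectors, and an ATF4 and DDIT3 arm of 14 genes.

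The cells were DLD-1, an established line from a human colorectal cancer, and total RNA was read on exon arrays with 1 value per gene after knockdown of LMNB1 (lamin B1) by short hairpin RNA. Construct V2LHS_62673 is represented by single-cell clones 8, 9 and 12, with 1 array each. Construct V2LHS_62675 is represented by 1 clone on 3 arrays, which the descriptions and design text number 2 and the titles number 12, and which is called clone 2 here. The controls were 3 clones with an empty vector and 1 culture of wild type cells. All clones grew under puromycin, while the wild type cells had no vector, no puromycin and no single-cell cloning, so these 3 differences cannot be told apart in any comparison with them. Each hairpin clone descends from 1 cell, so a difference between clones of one construct may belong to the clone. The 3 arrays of clone 2 were averaged and counted as 1 sample, which left 8 samples. With 1 sample each, clone 2 and wild type cells are assumed to vary like the other groups, and a p-value compares clones and cultures only.

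The unfolded protein response senses misfolded protein in the ER through the membrane proteins encoded by ERN1, ATF6 and EIF2AK3. ERN1 splices the XBP1 transcript and ATF6 is cleaved to a transcription factor, and both routes raise ER chaperones and degradation factors. EIF2AK3, like other kinases of the integrated stress response, phosphorylates eIF2, which favours translation of ATF4, a transcription factor for amino acid supply, redox defence and, through DDIT3 (CHOP), cell death. ATF4 is controlled mainly in translation, and XBP1 by splicing, so neither transcript level measures the activity of its protein.

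The promoters of both arms differ in the elements through which these factors act. The ER stress response element (ERSE, CCAAT and CCACG with 9 bases of any kind between them) is read by ATF6 and XBP1, as is ERSE-II (ATTGG and CCACG with 1 base of any kind between them), and the C/EBP-ATF response element (CARE, TGATGNAA) is read by ATF4 with a C/EBP partner. Each was searched on both strands in RefSeq windows from 250 bases before to 50 bases after the gene start (GRCh38.p14). Windows were available for 34 members. ERSE was found in 6 of these (HSPA5, HSP90B1, CALR, PDIA6, CRELD2 and XBP1) and in 0.0916% of 27305 genes. ERSE-II was found in SDF2L1, HYOU1 and HERPUD1, and in 0.0696% of all genes. CARE was found in HERPUD1, ATF3, CEBPG, CHAC1 and SLC3A2, and in 4.46% of all genes. Of the 13 genes of the ATF4 and DDIT3 arm with a window, 4 held CARE and none held ERSE or ERSE-II, while 8 of 17 in the ER chaperone arm held one of the latter. No matches of different motifs overlapped.

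The 250 bases before the start of 5 genes on which the results turn are given, from 5′ to 3′ on the gene's strand, with the fixed letters of each match in capitals. HSPA5 at chr9:125241344-125241593 (minus strand) shows ERSE. SDF2L1 at chr22:21642052-21642301 (plus strand) shows ERSE-II on the opposite strand. HERPUD1 at chr16:56931892-56932141 (plus strand) shows CARE on the opposite strand, followed by ERSE-II, and is the single member that holds elements of both kinds. CHAC1 at chr15:40953221-40953470 (plus strand) shows CARE on the opposite strand. DDIT4 at chr10:72273674-72273923 (plus strand) holds none of these letters in this window. A match describes the sequence and is not evidence of binding.
HSPA5: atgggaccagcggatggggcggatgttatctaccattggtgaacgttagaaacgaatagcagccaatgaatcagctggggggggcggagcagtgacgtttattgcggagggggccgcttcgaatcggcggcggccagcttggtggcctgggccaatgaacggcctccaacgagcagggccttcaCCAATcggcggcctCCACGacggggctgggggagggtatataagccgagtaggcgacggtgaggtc
SDF2L1: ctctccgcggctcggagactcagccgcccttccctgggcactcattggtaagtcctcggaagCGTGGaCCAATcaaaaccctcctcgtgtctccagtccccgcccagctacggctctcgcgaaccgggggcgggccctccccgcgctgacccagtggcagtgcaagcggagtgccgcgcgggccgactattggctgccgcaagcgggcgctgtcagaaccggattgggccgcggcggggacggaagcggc
HERPUD1: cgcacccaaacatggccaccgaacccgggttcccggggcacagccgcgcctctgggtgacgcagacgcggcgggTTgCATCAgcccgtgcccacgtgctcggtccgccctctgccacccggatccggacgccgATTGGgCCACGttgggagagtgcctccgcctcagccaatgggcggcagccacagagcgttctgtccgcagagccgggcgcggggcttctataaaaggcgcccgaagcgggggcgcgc
CHAC1: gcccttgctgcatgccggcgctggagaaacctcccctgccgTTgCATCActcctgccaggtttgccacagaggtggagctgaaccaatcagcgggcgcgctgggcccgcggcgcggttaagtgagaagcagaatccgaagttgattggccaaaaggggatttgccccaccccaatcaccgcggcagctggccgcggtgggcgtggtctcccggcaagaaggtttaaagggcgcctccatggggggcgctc
DDIT4: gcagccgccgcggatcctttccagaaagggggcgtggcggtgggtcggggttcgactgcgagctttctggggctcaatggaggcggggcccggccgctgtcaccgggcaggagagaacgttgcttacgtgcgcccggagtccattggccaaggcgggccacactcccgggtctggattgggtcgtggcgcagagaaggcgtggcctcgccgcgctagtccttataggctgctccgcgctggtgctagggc

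One array stood apart. Clone 8 correlated with the other arrays at 0.915 to 0.926, while the others correlated with each other at 0.986 to 0.994, and its median log2 level was 7.62 against 7.34 to 7.41. Its difference from the empty vector clones moved with signal level over all genes: when genes were put into 4 classes of equal size by level, the median was 0.56 higher in the lowest class and 0.65 lower in the highest. Counts of calls are therefore given with and without clone 8, as are differences between knockdown clones and controls. In wild type cells and clone 2, leaving out clone 8 alters the spread used by the fit but not the difference from the empty vector clones, and with clone 8 no gene was called. The LMNB1 probe, which also carries PCIF1, read 7.45 to 7.79 in the 4 knockdown clones and 8.84 to 9.52 in the 4 controls (two-sided exact permutation test, p = 0.0286, the smallest that 4 against 4 allows). Of 11 colon epithelial markers 10 passed the filter, as did 2 of 5 measured leukocyte markers and 6 of 9 fibroblast and endothelial markers. The mean log2 level over each whole list ran, outside clone 8, from 9.59 to 9.94, from 5.59 to 5.77 and from 5.84 to 6.03, and was 9.78, 6.11 and 6.57 in clone 8. Probe levels are in log2 units and do not rank one gene against another. Fewer cells expressing a gene and less RNA per cell cannot be told apart in bulk RNA.

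Outside clone 8, the ER chaperone arm differed little between clones. In clones 9, 12 and 2 and wild type cells, the ATF4 and DDIT3 arm lay below the mean of the 3 empty vector clones. Clone 9 differed least and overlapped the first empty vector clone. Against the mean of the 3 empty vector clones, the median member of the ATF4 and DDIT3 arm was 0.34 lower in wild type cells, with 14 of 14 genes lower. It was 0.52 lower in clone 12 with 14 of 14 genes lower, 0.34 lower in clone 2 with 11 of 14, and 0.17 lower in clone 9 with 12 of 14. In clone 8 it was 0.24 higher, with 5 of 14 genes lower. Over all genes tested the share that was lower was 51.7% in wild type cells, 51.0% in clone 12, 43.5% in clone 2, 49.5% in clone 9 and 41.9% in clone 8. The medians of the ER chaperone arm stayed between -0.04 and 0.05 in wild type cells and clones 9, 12 and 2, and the medians of all genes between -0.01 and 0.02. In clone 8 the ER chaperone arm lay 0.37 below and all genes 0.18 above. That clone shifted with signal level, so the arm and all genes are not compared there at like level. Against the median of genes of like level in clone 8, genes of the ER chaperone arm ranged from -1.22 (DNAJC3) to 1.20 (DNAJB11). The empty vector clones differed among themselves too: against the other 2, the ATF4 and DDIT3 arm stood at -0.19 in the first, 0.03 in the second and 0.14 in the third, so the first of them differed from the others by about as much as clone 9 differed from their mean. All these differences share the same 3 empty vector clones and are not separate evidence. Colon epithelial markers differed as well: the median of the 10 that passed the filter was -0.23 in clone 9 with 10 lower, -0.12 in clone 12 with 8 lower, 0.08 in clone 2 with 4 lower and 0.13 in wild type cells with 4 lower. The 6 fibroblast and endothelial markers were all higher in clone 8, by a median of 0.73. The part of these shifts in the results was not tested.

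**Figure D1:**
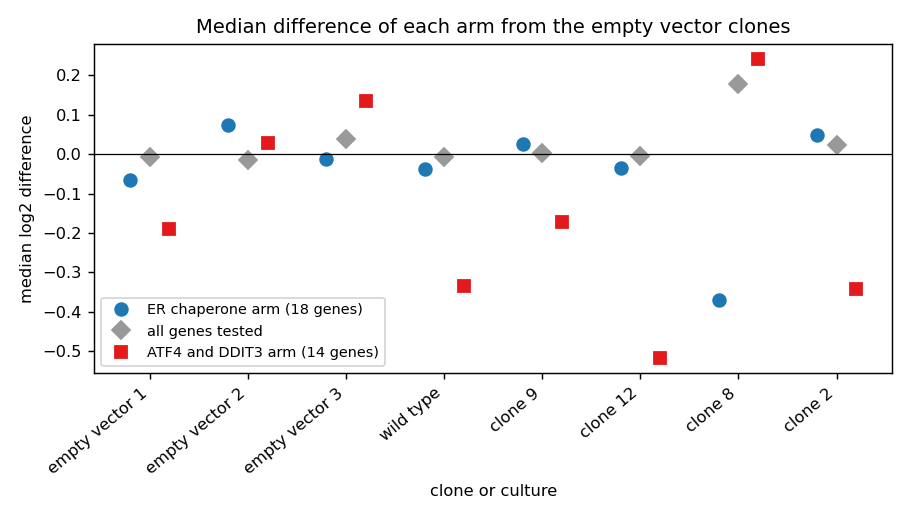
Median log2 difference (vertical axis) of the 18 genes of the ER chaperone arm (blue circles), the 14 genes of the ATF4 and DDIT3 arm (red squares) and all genes tested (grey diamonds) in each clone or culture (horizontal axis). Differences are from the mean of the 3 empty vector clones, and for each of those from the mean of the other 2. The ATF4 and DDIT3 arm lies at -0.52 in clone 12, -0.34 in wild type cells and clone 2, and 0.24 in clone 8, while the ER chaperone arm stays near 0 outside clone 8.

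Genes were also counted by whether they lay below all 3 empty vector clones. In clone 12 this held for 12 of the 14 genes of the ATF4 and DDIT3 arm, beside 31.6% of all genes tested. In wild type cells it held for 10 of 14, beside 30.3%, and in clone 2 for 9 of 14, beside 25.2%. In clone 9 it held for 4 of 14, beside 27.8%, and in clone 8 for 4 of 14, beside 38.1%, which is near or below the background. In the ER chaperone arm the counts were 8 of 18 in clone 12, 7 in wild type cells, 6 in clone 2, 4 in clone 9 and 10 in clone 8. Outside clone 8 no gene of the ATF4 and DDIT3 arm lay above all 3 empty vector clones, beside 30.1% of all genes in wild type cells, 27.9% in clone 9, 27.4% in clone 12 and 32.0% in clone 2, and in clone 8 there were 7 of 14, beside 53.5% of all genes.

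**Figure D2:**
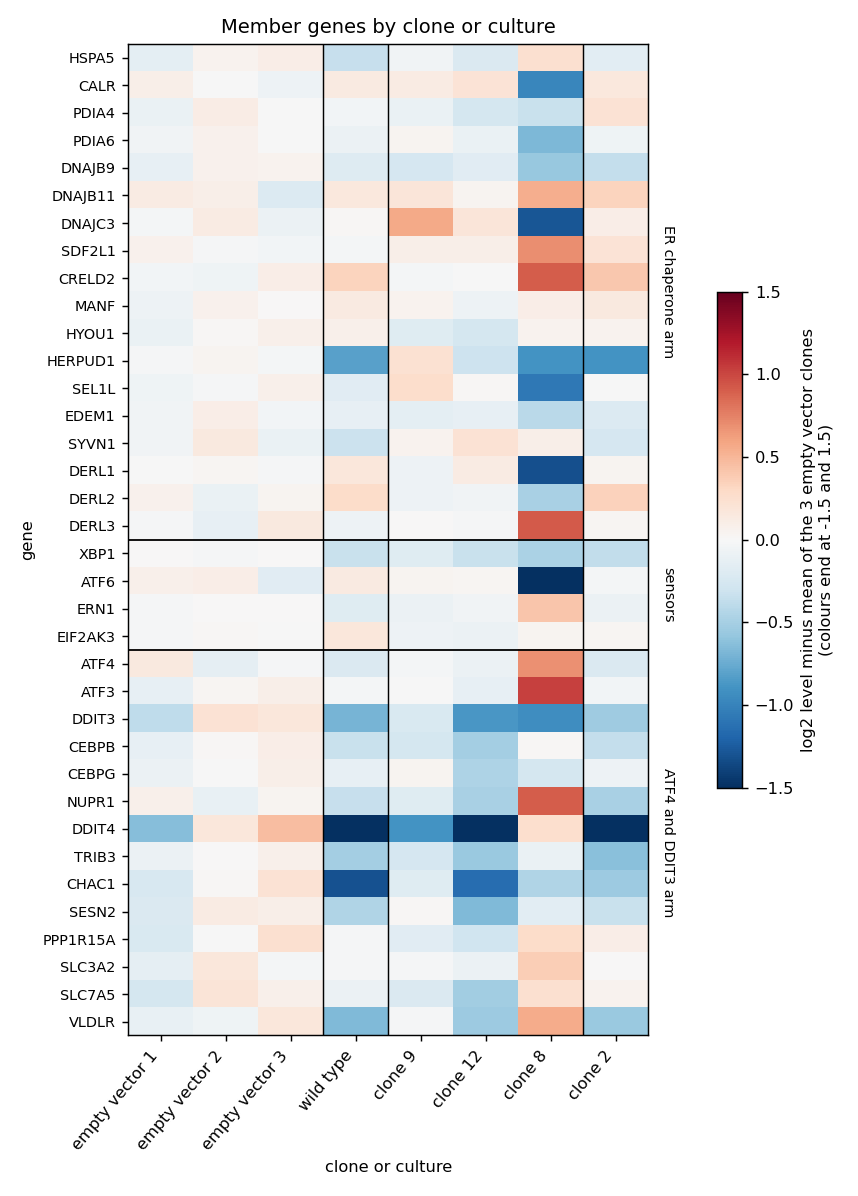
Log2 level of each of the 36 measured genes (vertical axis) minus the mean of the 3 empty vector clones, by clone or culture (horizontal axis). Red is higher and blue lower, the scale ends at -1.5 and 1.5, and black lines separate the arms and the groups. The ATF4 and DDIT3 arm is mostly blue in wild type cells, clone 12 and clone 2, and clone 8 shows large differences of both signs.

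With lamin B1 knockdown clones set against all controls, no member passed the threshold. The limma fit called 0% of 11199 features at an adjusted p under 0.05 and 2.29% at an unadjusted p under 0.05, and 0 of 36 members reached either. Without clone 8 it again called 0%, and 5 of 36 members reached an unadjusted p under 0.05, beside 6.47% of all features. CEBPB, NUPR1, TRIB3 and DNAJB9 were lower among these and DNAJC3 higher. The median difference was -0.13 in the ATF4 and DDIT3 arm, -0.11 in the ER chaperone arm and 0.04 over all genes, and without clone 8 it was -0.21, 0.00 and 0.01. Without clone 8 all 14 genes of the ATF4 and DDIT3 arm were lower, beside 48% of all genes, and 8 of 18 in the ER chaperone arm. The 10 colon epithelial markers were all lower as well, by a median of 0.12, where clones 9 and 12 against the empty vector clones had 10 of 10 lower by a median of 0.19, and whether this bears on the members was not tested. SDF2L1 was the single member with every knockdown clone above every control, beside 1.60% of all features, and no member had every knockdown clone below, beside 1.54%. Without clone 8 the same held, beside 3.46% above and 2.66% below. Wild type cells, themselves low for the ATF4 and DDIT3 arm, are among the controls in this comparison.

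Without clone 8, clones and cultures were compared with the empty vector clones group by group. Members reached an adjusted p under 0.05 in the limma fit in 3 cases for wild type cells, beside 3.60% of all features, and in 2 cases for clone 2, beside 3.74%. For clones 9 and 12 of construct V2LHS_62673 there were none, beside 1.03%, with 10 at an unadjusted p under 0.05, beside 16.0%. These counts are 8.33% and 5.56% of the members and rest on few genes. At an unadjusted p under 0.05, 13 of 36 members differed in wild type cells in either direction, beside 19.7% of all features, and 11 were lower, beside 9.44%. The count lower was 8 in clone 2, beside 8.30%, and 9 in clones 9 and 12, beside 9.23%. The ATF4 and DDIT3 arm held 7 of these genes in wild type cells, 5 in clone 2 and 7 in clones 9 and 12. With clone 8 in the fit, the limma test called no feature in any of these comparisons, while 2 members reached an unadjusted p under 0.05 in wild type cells, 1 in clone 2 and 1 in construct V2LHS_62673, beside 2.59%, 2.63% and 3.20%. The calls depended on single clones: when the second or the third empty vector clone was also left out, no member was called for wild type cells or clone 2, beside 0.143% to 0.643% of all features. When clone 9 or clone 12 was also left out, construct V2LHS_62673 had 1 sample, so the residual spread came from the 3 empty vector clones alone. For clone 12 or clone 9 alone only differences are therefore given. Without the first empty vector clone, 4 were called in wild type cells, 3 in clone 2 and 3 in clones 9 and 12, beside 6.31%, 5.54% and 4.5%.

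**Figure D3:**
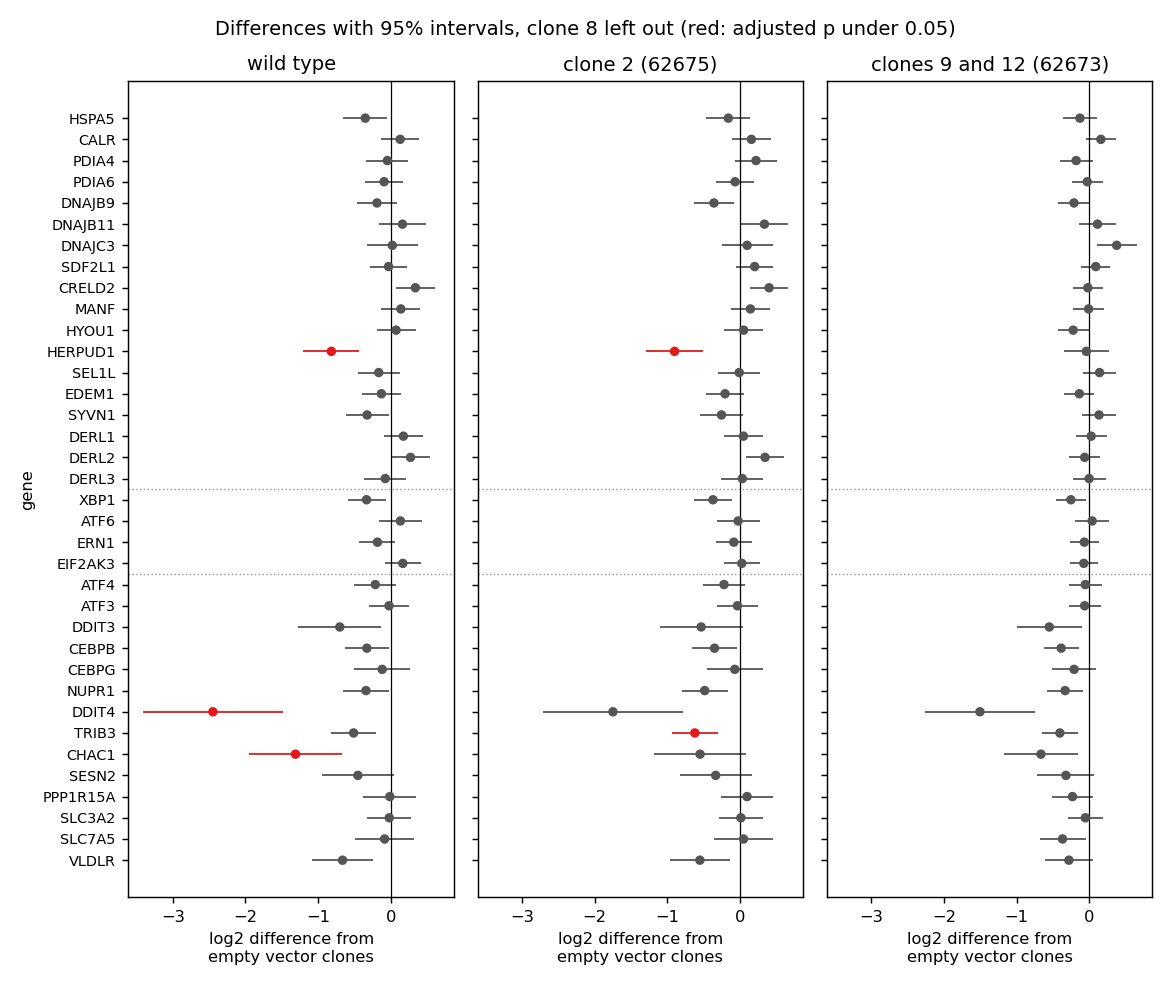
Log2 difference from the 3 empty vector clones (horizontal axis) with its 95% interval for each member (vertical axis) in wild type cells, clone 2 and clones 9 and 12, fitted without clone 8. Red marks an adjusted p under 0.05: DDIT4, CHAC1 and HERPUD1 in wild type cells, HERPUD1 and TRIB3 in clone 2, and no gene in clones 9 and 12.

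Among the effectors of the ATF4 and DDIT3 arm, DDIT4 is given first. DDIT4 encodes REDD1, a stress-induced inhibitor of mTORC1. Its log2 level was 8.98, 9.78 and 10.08 in the empty vector clones and 7.17 in wild type cells. It was 9.86 in clone 8, 8.72 in clone 9, 7.49 in clone 12, and 7.16, 8.27 and 8.16 on the arrays of clone 2. Every array but that of clone 8 thus read below all 3 empty vector clones. In wild type cells DDIT4 was 5.46-fold lower than in the empty vector clones (log2 difference -2.45, SE 0.43, limma adjusted p = 0.0220 without clone 8). With clone 8 the SE was 0.82 and the adjusted p was 1. Without the second empty vector clone as well, the adjusted p was 0.0920, and without the third 0.106. The difference of clones 9 and 12 was -1.51 (SE 0.34, adjusted p = 0.0712) and that of clone 2 was -1.75 (SE 0.43, adjusted p = 0.0532), neither past the threshold. When the first empty vector clone was also left out, both were called (-1.82, limma adjusted p = 0.00737, and -2.07, adjusted p = 0.00837). When the second or the third was left out instead, neither was called. Clone 12 alone differed from the empty vector clones by -2.12 and clone 9 alone by -0.89.

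CHAC1, a glutathione-degrading enzyme induced by ATF4, followed a similar order. It read 8.52, 8.78 and 8.98 in the empty vector clones and 7.45 in wild type cells. It read 8.31 in clone 8, 8.57 in clone 9, 7.61 in clone 12, and 7.75, 8.69 and 8.18 on the arrays of clone 2. Clone 9 and the second array of clone 2 overlapped the empty vector clones, and wild type cells and clone 12 lay farthest below. In wild type cells CHAC1 was 2.48-fold lower (log2 difference -1.31, SE 0.29, limma adjusted p = 0.0383 without clone 8, 1 with it). The adjusted p was 0.117 without the second empty vector clone and 0.154 without the third, 0.0739 after quantile normalization, 0.0555 after median centring and 0.0553 with no filter. CHAC1 differed by -0.67 (SE 0.23, adjusted p = 0.187) in clones 9 and 12 and by -0.55 (SE 0.29, adjusted p = 0.367) in clone 2. Clone 12 alone differed by -1.15 and clone 9 alone by -0.19.

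TRIB3, a pseudokinase that DDIT3 and ATF4 induce and that restrains ATF4, had the narrowest empty vector values of the effectors, 9.64, 9.73 and 9.79. Wild type cells read 9.21, clone 8 read 9.62, clone 9 read 9.47, clone 12 read 9.16, and the arrays of clone 2 read 9.21, 9.10 and 8.98. All other arrays lay below all 3 empty vector clones, clone 8 by the least, and the share of all features with this pattern was not counted. In clone 2 TRIB3 was 1.54-fold lower (log2 difference -0.62, SE 0.14, limma adjusted p = 0.0404 without clone 8, 1.00 with it). The adjusted p was 0.126 without the second or the third empty vector clone, and 0.0512 after quantile normalization, 0.0530 after median centring, 0.0562 with no filter and 0.0656 from the first array of clone 2 alone. The difference was -0.51 (SE 0.14, adjusted p = 0.0726) in wild type cells and -0.41 (SE 0.11, adjusted p = 0.115) in clones 9 and 12. Clone 12 alone differed by -0.56 and clone 9 alone by -0.25. Of the other effectors, SESN2, a stress-induced regulator of mTORC1, ranged from 7.21 in clone 12 to 8.00 in the second empty vector clone. PPP1R15A, the eIF2 phosphatase subunit that ends the response, ranged from 7.46 in clone 12 to 8.04 in clone 8, and neither gene was called in the fits with or without clone 8. In clone 12 alone SESN2 differed by -0.66 from the empty vector clones.

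**Figure D4:**
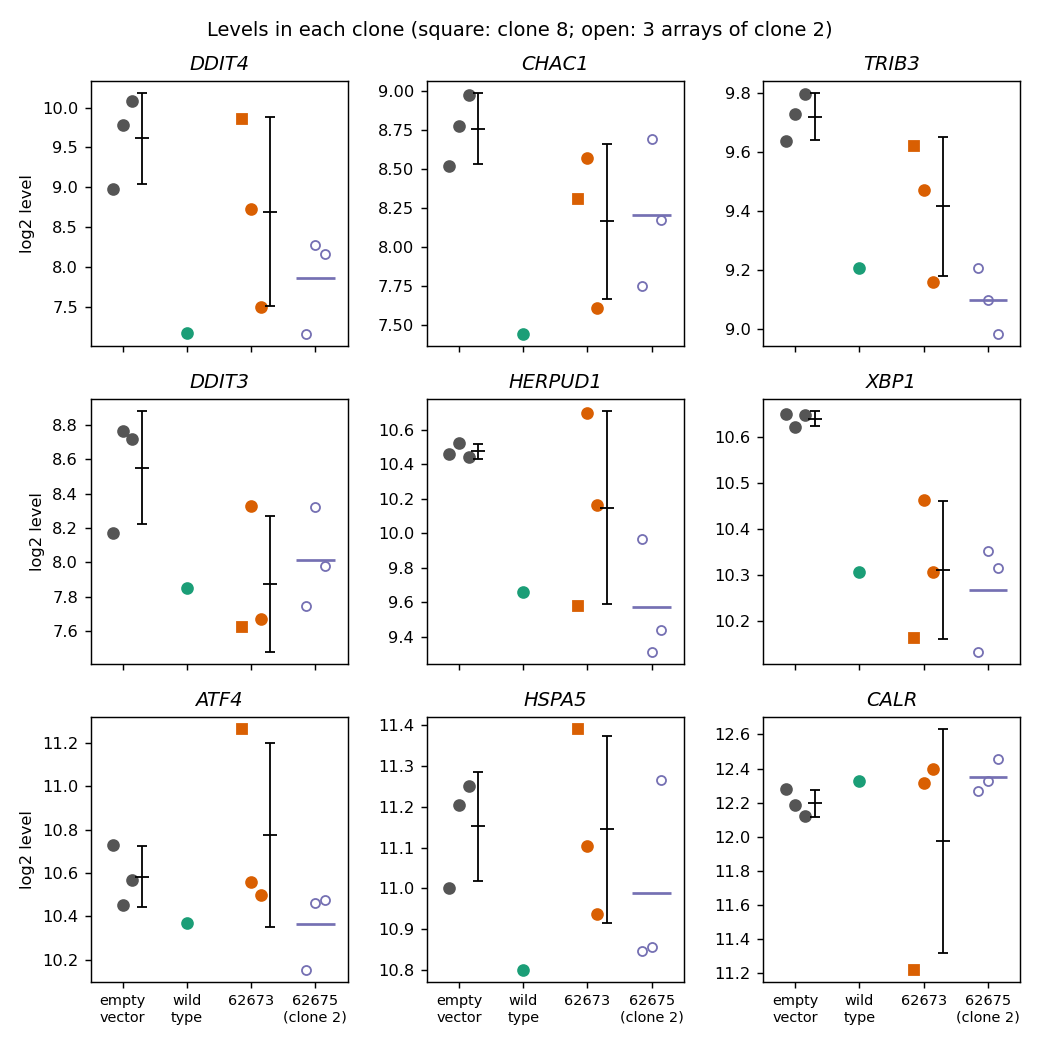
Log2 level (vertical axes, one range per gene) of 9 members in each group. Filled points are clones or cultures, the square is clone 8, open points are the 3 arrays of clone 2 with their mean as a line, and bars show mean and SD over 3 clones. DDIT4, CHAC1 and TRIB3 are lowest in wild type cells, clone 12 or clone 2, and the empty vector values of XBP1 (10.62 to 10.65) and HERPUD1 (10.44 to 10.52) lie close together.

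Among the transcription factors, ATF4 itself varied little outside clone 8. ATF4 read 10.73, 10.45 and 10.57 in the empty vector clones, 10.37 in wild type cells, 11.26 in clone 8, 10.56 in clone 9, 10.50 in clone 12, and 10.15, 10.46 and 10.47 on the arrays of clone 2. Its difference between knockdown clones and controls was 0.14 (SE 0.20, limma adjusted p = 0.771) with all clones and -0.06 (SE 0.10, adjusted p = 0.948) without clone 8. Its sign therefore depended on clone 8. DDIT3, which encodes CHOP, read 8.17, 8.76 and 8.72 in the empty vector clones and 7.85 in wild type cells. It read 7.62 in clone 8, 8.33 in clone 9, 7.67 in clone 12, and 7.75, 8.32 and 7.98 on the arrays of clone 2. The first empty vector clone lay below clone 9, so the groups overlapped. Its difference between knockdown clones and controls was -0.47 (SE 0.24, adjusted p = 0.761), and -0.37 (SE 0.24, adjusted p = 0.813) without clone 8. Against the empty vector clones, without clone 8, DDIT3 differed by -0.70 in wild type cells (adjusted p = 0.158), -0.54 in clone 2 (adjusted p = 0.311) and -0.55 in clones 9 and 12 (adjusted p = 0.222). It was called when the first empty vector clone was left out, in wild type cells (-0.89, adjusted p = 0.0339) and in clones 9 and 12 (-0.74, adjusted p = 0.0365). Clone 12 alone differed by -0.88 and clone 9 alone by -0.22.

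The C/EBP factors pair with ATF4 or CHOP at composite sites. CEBPB read 9.09, 9.23 and 9.31 in the empty vector clones, 8.88 in wild type cells, 9.23 in clone 8, 8.95 in clone 9, 8.70 in clone 12, and 8.79, 8.87 and 8.92 on the arrays of clone 2. All but clone 8 lay below the empty vector clones. It differed by -0.19 (SE 0.15, limma adjusted p = 0.761) between knockdown clones and controls, and by -0.29 (SE 0.11, adjusted p = 0.750) without clone 8. CEBPG read 8.78, 8.87 and 8.96 in the empty vector clones, 8.75 in wild type cells, 8.61 in clone 8, 8.91 in clone 9, 8.40 in clone 12, and 8.57, 8.95 and 8.87 on the arrays of clone 2, and overlapped between the groups. NUPR1, a stress-induced chromatin-binding protein, ranged from 8.06 to 8.24 in the empty vector clones and from 7.68 to 7.99 in wild type cells and clones 9, 12 and 2, and was 9.08 in clone 8. ATF3, a repressor induced by ATF4, read 6.12 to 6.33 outside clone 8 and 7.27 in clone 8.

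Of the surface proteins, SLC3A2 and SLC7A5 form the CD98 amino acid exchanger. SLC3A2 ranged from 10.19 to 10.49 in the empty vector clones, was 10.30 in wild type cells and 10.69 in clone 8. SLC7A5 ranged from 10.64 to 11.11 in the empty vector clones, was 10.83 in wild type cells and was lowest in clone 12 at 10.39. It differed by -0.37 (SE 0.14, limma adjusted p = 0.246 without clone 8) in clones 9 and 12, where it was called when the first empty vector clone was left out (-0.50, adjusted p = 0.0485). VLDLR, the very low density lipoprotein receptor, read 6.53, 6.58 and 6.82 in the empty vector clones, 5.98 in wild type cells, 7.20 in clone 8, 6.62 in clone 9, 6.10 in clone 12, and 6.17, 6.03 and 6.06 on the arrays of clone 2. It differed by -0.66 (SE 0.19, limma adjusted p = 0.0777 without clone 8) in wild type cells and by -0.55 (SE 0.19, adjusted p = 0.136) in clone 2, and neither passed the threshold. Fits that also left out clone 9 or clone 12 took their residual spread from the empty vector clones alone and are not given.

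Of the sensor genes, XBP1 separated the empty vector clones from everything else. It read 10.65, 10.62 and 10.65 there, 10.31 in wild type cells, 10.16 in clone 8, 10.46 in clone 9, 10.31 in clone 12, and 10.13, 10.35 and 10.32 on the arrays of clone 2. No other sample overlapped the empty vector clones, but the share of all features that separate in this way was not counted. In a single clone or culture, 25.2% to 38.1% of all features lay below all 3 empty vector clones. The difference was -0.33 (SE 0.12, limma adjusted p = 0.145 without clone 8) in wild type cells, -0.37 (SE 0.12, adjusted p = 0.111) in clone 2 and -0.25 (SE 0.09, adjusted p = 0.220) in clones 9 and 12, none past the threshold over all genes. From the first array of clone 2 alone it was called (-0.51, adjusted p = 0.0341). With clone 8 the difference of construct V2LHS_62673 was -0.33 (SE 0.15, adjusted p = 0.741). Between knockdown clones and all controls it was -0.26 (SE 0.13, adjusted p = 0.761), and -0.21 (SE 0.10, adjusted p = 0.779) without clone 8. The array does not separate spliced from unspliced XBP1.

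ATF6, the ER-membrane transcription factor, read 10.54, 10.56 and 10.30 in the empty vector clones, 10.60 in wild type cells, 10.51 in clone 9, 10.50 in clone 12, and 10.55, 10.35 and 10.42 on the arrays of clone 2. Clone 8 read 8.18. The groups overlapped outside clone 8, and the knockdown difference was -0.59 (SE 0.46, limma adjusted p = 0.761) with clone 8 and between -0.08 and 0.02 under the alternatives without it. ERN1, the kinase and ribonuclease that splices XBP1, read 7.02, 7.04 and 7.04 in the empty vector clones, 6.85 in wild type cells, 7.46 in clone 8, 6.95 in clone 9, 6.98 in clone 12, and 7.02, 6.91 and 6.92 on the arrays of clone 2. EIF2AK3, the ER-resident eIF2 kinase PERK, read 7.49, 7.52 and 7.50 in the empty vector clones, 7.67 in wild type cells, 7.54 in clone 8, 7.43 in clone 9, 7.42 in clone 12, and 7.41, 7.52 and 7.65 on the arrays of clone 2. Neither was called in any comparison.

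In the folding group of the ER chaperone arm no gene was called with the 3 arrays of clone 2 averaged. Without clone 8 and from the second and the third array of clone 2 alone, CRELD2 (0.56, limma adjusted p = 0.0175) and PDIA4 (0.52, adjusted p = 0.0327) were called against the empty vector clones, and also against clones 9 and 12 (0.58 and 0.70). From its first array alone DNAJB9 was called (-0.49, adjusted p = 0.0474). HSPA5 encodes BiP, the main ER Hsp70 chaperone and the usual marker of the response. It read 11.00, 11.21 and 11.25 in the empty vector clones, 10.80 in wild type cells, 11.39 in clone 8, 11.10 in clone 9, 10.94 in clone 12, and 10.85, 10.86 and 11.27 on the arrays of clone 2. Knockdown clones and controls overlapped, with a difference of 0.04 (SE 0.15, limma adjusted p = 0.905), and -0.05 (SE 0.11, adjusted p = 0.962) without clone 8. The 95% interval without clone 8 ran from -0.31 to 0.21. Wild type cells were 0.35 below the empty vector clones (SE 0.14, adjusted p = 0.182 without clone 8).

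SDF2L1, a partner of the ER DnaJ proteins, read 8.17, 8.09 and 8.08 in the empty vector clones, 8.09 in wild type cells, 8.81 in clone 8, 8.20 in clone 9, 8.21 in clone 12, and 8.27, 8.36 and 8.31 on the arrays of clone 2. Every knockdown clone lay above every control, and clone 9 was the closest to the first empty vector clone. The difference was 0.28 (SE 0.15, limma adjusted p = 0.761), and 0.13 without clone 8. DNAJB9, a BiP cochaperone, read 7.58, 7.78 and 7.76 in the empty vector clones, 7.52 in wild type cells, 7.14 in clone 8, 7.45 in clone 9, 7.54 in clone 12, and 7.21, 7.43 and 7.40 on the arrays of clone 2. Its difference was -0.29 (SE 0.13, adjusted p = 0.761), and -0.21 (SE 0.09, adjusted p = 0.767) without clone 8. DNAJB11, another ER DnaJ protein, read 10.19, 10.15 and 9.86 in the empty vector clones, 10.23 in wild type cells, 10.61 in clone 8, 10.25 in clone 9, 10.11 in clone 12, and 10.39, 10.33 and 10.48 on the arrays of clone 2. In this gene the groups overlapped through clone 12.

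The other folding genes showed differences of either sign. CRELD2, a small secreted ER stress protein, was 0.40 above the empty vector clones in clone 2 (SE 0.12, limma adjusted p = 0.0950 without clone 8) and 0.34 above in wild type cells (SE 0.12, adjusted p = 0.145). DNAJC3, the BiP cochaperone p58IPK, was 0.38 above in clones 9 and 12 (SE 0.13, adjusted p = 0.177), while with clone 8 construct V2LHS_62673 differed by -0.18 (adjusted p = 0.848). CALR, the lectin chaperone calreticulin, read 12.12 to 12.46 outside clone 8 and 11.22 in clone 8. PDIA4 and PDIA6, disulfide isomerases, HYOU1, an ER nucleotide exchange factor, and MANF, a secreted ER protein, had differences between knockdown clones and controls of -0.11, -0.18, -0.10 and 0.02, with limma adjusted p-values of 0.761 to 0.945. Without clone 8 these were -0.04, -0.02, -0.15 and 0.01 (adjusted p = 0.813 to 0.995).

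In the degradation group HERPUD1 was the single member called in more than one comparison. It encodes an ER membrane organiser of the ubiquitin ligase complex. Its level was 10.46, 10.52 and 10.44 in the empty vector clones and 9.66 in wild type cells. It was 9.58 in clone 8, 10.70 in clone 9, 10.17 in clone 12, and 9.97, 9.31 and 9.44 on the arrays of clone 2. Clone 9 lay above the empty vector clones and all other samples below. Against the empty vector clones it was 1.87-fold lower in clone 2 (log2 difference -0.90, SE 0.18, limma adjusted p = 0.0226 without clone 8, 1.00 with it) and 1.76-fold lower in wild type cells (-0.82, SE 0.18, adjusted p = 0.0343 without clone 8, 1 with it). Leaving out the second or the third empty vector clone as well moved the adjusted p to 0.0964 and 0.102 in clone 2, and to 0.113 and 0.122 in wild type cells. From the first array of clone 2 alone the difference was -0.51 (adjusted p = 0.130), and for wild type cells the adjusted p was 0.0537 after quantile normalization and 0.0547 after median centring.

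HERPUD1 was also called between clones of different constructs when clone 8 was left out. Clone 2 was 0.86 below clones 9 and 12 (SE 0.19, limma adjusted p = 0.0436 without clone 8, 0.932 with it, when the difference was -0.58), the single member called in this comparison, beside 2.15% of all features. At an unadjusted p under 0.05 there were 5 members, beside 15.2%. With clone 8 in the fit, 0% of features were called, 2.22% reached an unadjusted p under 0.05 and no member did. Without clone 9 the difference was -0.59. Without the second or the third empty vector clone the limma adjusted p was 0.0958 and 0.110. From the first array of clone 2 alone the difference was -0.47 (adjusted p = 0.356). The adjusted p was 0.0641 after quantile normalization, 0.0625 after median centring and 0.0596 with no filter. With 1 clone of construct V2LHS_62675, construct and clone cannot be told apart. The medians of this comparison without clone 8 were 0.02 in the ATF4 and DDIT3 arm, 0.01 in the ER chaperone arm and 0.02 over all genes.

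EDEM1, a mannosidase-like degradation factor, read 8.34, 8.49 and 8.36 in the empty vector clones, 8.27 in wild type cells, 7.99 in clone 8, 8.25 in clone 9, 8.27 in clone 12, and 8.05, 8.24 and 8.27 on the arrays of clone 2. It differed by -0.19 between knockdown clones and controls (SE 0.12, limma adjusted p = 0.761), and by -0.13 (SE 0.08, adjusted p = 0.810) without clone 8. DERL2, which helps to extract proteins from the ER, was 0.34 above the empty vector clones in clone 2 and 0.27 above in wild type cells (adjusted p = 0.145 and 0.241 without clone 8). From the second and the third array of clone 2 alone DERL2 was called (0.61, limma adjusted p = 0.0126), and SYVN1 was then called lower in clone 2 than in clones 9 and 12 (-0.55, adjusted p = 0.0390). SYVN1, the ER ubiquitin ligase HRD1, was 0.33 below in wild type cells (adjusted p = 0.210). SEL1L, the partner of SYVN1, read 8.69 to 9.12 outside clone 8 and 7.79 in clone 8. DERL1 read 9.98 to 10.40 outside clone 8 and 8.81 in clone 8, and DERL3, another of these paralogues, 6.63 to 6.90 and 7.67.

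Since clone 8 differed with signal level over all genes, its members were set against the median of genes of like level. Of the 36 members, 18 lay in the highest of the 4 classes of level, where the median of all genes in clone 8 was 0.65 below the empty vector clones. Within that class ATF4 was 0.68 above them and thus 1.33 above its class median, and DNAJB11 was 1.20 and SLC3A2 1.02 above it. ATF6 was 2.28 below the empty vector clones and 1.63 below its class median. DNAJC3, SEL1L and DDIT3, from the next lower class, were 1.22, 1.01 and 0.87 below their class median, and NUPR1 and CRELD2 were both 0.97 above it. These are differences of 1 array, with no replicate.

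**Figure D5:**
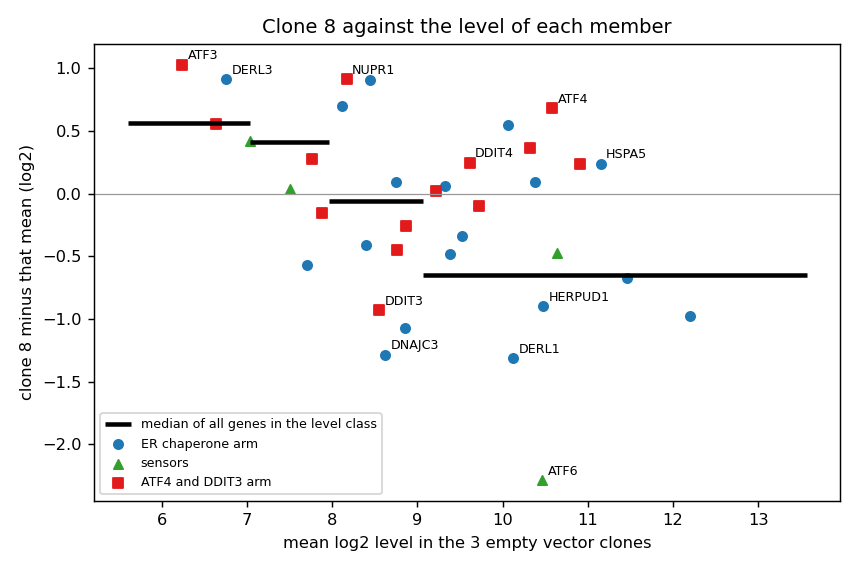
Difference of clone 8 from the mean of the 3 empty vector clones (vertical axis, log2) against that mean (horizontal axis, log2) for the 36 members, by arm. Black bars are the median of all genes tested in each class of level, which falls from 0.56 to -0.65. ATF4 lies above and ATF6 below the bar of the highest class.

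Further genes of these pathways were taken from 3 lists. In other ATF4 and CHOP targets, 36 measured genes, wild type cells had 28 lower (77.8%, beside 51.7% of all genes) and a median of -0.20, and 3 were called (beside 3.60% of all features) without clone 8, all lower: KLHL24, a ubiquitin ligase adaptor, by -1.15 (adjusted p = 0.0319), SLC38A2, an amino acid transporter, by -0.72 (adjusted p = 0.0240), and PCK2, the mitochondrial PEP carboxykinase, by -0.86 (adjusted p = 0.0319). In clone 2, 25 of 36 were lower (69.4%, beside 43.5% of all genes), the median was -0.18 and KLHL24 was called, beside 3.74% of all features (-1.07, limma adjusted p = 0.0385). In clones 9 and 12, 28 of 36 were lower (beside 50.1% of all genes), the median was -0.18 and none was called, beside 1.03% of all features. With clone 8 the limma fit called none. SHMT2, PHGDH and CTH, enzymes of serine, glycine and cysteine synthesis, had the smallest p-values of this list between knockdown clones and controls, with differences of -0.50, -0.56 and -0.53 (adjusted p = 0.761 each). Without clone 8 these were -0.34, -0.51 and -0.23 (adjusted p = 0.769 to 0.828). CTH was 1.48 below the empty vector clones in clone 8.

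Among 45 other ER folding and degradation genes, the medians without clone 8 were -0.06 in wild type cells, -0.06 in clone 2 and -0.07 in clones 9 and 12. In wild type cells GANAB, the glucosidase II catalytic subunit, was called (-0.59, limma adjusted p = 0.0329), beside 3.60% of all features. In clone 2 ERO1B (-0.67, adjusted p = 0.0422), UFD1 (0.73, adjusted p = 0.0142) and SELENOS (0.54, adjusted p = 0.0459) were called, beside 3.74%. In clones 9 and 12 the ER membrane protein WFS1 was called lower (95% interval -1.42 to -0.58, adjusted p = 0.0399), beside 1.03% of all features. Between clone 2 and clones 9 and 12 KDELR3 was called (-0.54, adjusted p = 0.0476), beside 2.15%. ERO1B, UFD1 and ERLEC1 had the smallest p-values of the list between knockdown clones and controls (-0.55, 0.34 and -0.40, adjusted p = 0.761 each), and without clone 8 the differences were -0.30, 0.48 and -0.16 (adjusted p = 0.639 to 0.791).

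Without clone 8, 3 of 18 genes for eIF2 kinases and the eIF2 complex were called in wild type cells and 3 in clone 2. Over all features the share called was 3.60% and 3.74%. These genes were subunits of eIF2B, the exchange factor that phosphorylated eIF2 inhibits, and were higher than in the empty vector clones. In wild type cells EIF2B1, EIF2B2 and EIF2B3 were 0.62, 0.61 and 0.71 higher (limma adjusted p = 0.0240, 0.0300 and 0.0184 without clone 8). In clone 2 they were 0.55, 0.60 and 0.50 higher (adjusted p = 0.0308, 0.0276 and 0.0493). In clones 9 and 12 the differences were 0.07, -0.06 and 0.20, none called. EIF2B2 was 0.67 higher in clone 2 than in clones 9 and 12 (limma adjusted p = 0.0352), beside 2.15% of all features called. The other measured subunits, EIF2B4 and EIF2B5, differed by 0.23 and 0.17 in wild type cells and by 0.05 and 0.08 in clone 2. Neither of them was called. None was called with clone 8 in the fit. EIF2AK1, IMPACT and PPP1CA had the smallest p-values between knockdown clones and controls (-0.35, -0.28 and 0.26, adjusted p = 0.761 each), and without clone 8 the differences were -0.17, -0.12 and 0.12 (adjusted p = 0.775 to 0.864). Of the 17 limma calls for genes of these 3 lists without clone 8, none remained without the second or the third empty vector clone. The limma adjusted p-values then reached 0.216 and 0.285. After quantile normalization 5 remained, 9 after median centring, 11 with no filter and 10 from the first array of clone 2. Of the 17 calls, 8 did not involve clone 2 and so could not change with its arrays. The genes of these lists that are named for being called were chosen after their values were seen.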

How the data were processed

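Each of the 10 arrays has a deposited log2 value at 22011 probes, and a probe stands for a transcript cluster. The log2 base was read from their range. Of the authors' processing, background correction, scaling and the summary over probes were not given in the sources used here. Per the labels' protocols, total RNA was depleted of ribosomal RNA, and single-stranded cDNA made from it was labelled with biotin.

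Values were used as deposited. Of the probes, 14432 carry 1 gene symbol, and the highest-mean probe was kept for each gene. Probes with a mean below the 25th percentile of all probes (5.95) were left out. The LMNB1 probe, shared with PCIF1, was added as a feature. Samples were fitted in R 4.3.3 with limma 3.58.1 (lmFit, eBayes; two-sided; Benjamini-Hochberg over 11199 features; threshold 0.05), as 2 groups for knockdown against controls and as 4 groups otherwise. The number of arrays limits the precision. The fits were tested on simulated data.

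The members and lists were chosen with earlier results of these data known. Values in every sample are given for ATF4, DDIT3, XBP1, ATF6, HSPA5, each member past the threshold and up to 4 members per arm with the smallest p between knockdown clones and controls. In each other list up to 3 genes with the smallest p are named. Alternatives were other scalings, filters, probe summaries, priors, weights, controls and arrays, a replicate block, and leaving out each clone. Those that leave out clone 8 and change a further choice were added after seeing the data.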

Additional observations from a re-analysis of the deposited data

Results flagged for a closer look

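In groups of 4, the extreme sample was tested against Dixon's critical value for its gap to the nearest sample over the whole range. Of 72 groups (36 members in the 4 knockdown clones and in the 4 controls) 9 passed, while chance gives about 1 in 20. Among the knockdown clones this was 16.7% of the members and 26.9% of all features, nearly all of the latter through clone 8 (26%), and among the controls 8.33% and 5.64%. Clone 8 was far below the other knockdown clones for CALR (11.22, the nearest 12.31), DERL1 (8.81, the nearest 10.05) and ATF6 (8.18, the nearest 10.44). It was far above them for DERL3 (7.67, the nearest 6.79), ERN1 (7.46, the nearest 6.98) and ATF3 (7.27, the nearest 6.23). Clone 8 also shifted with signal level over all genes. Against the median of genes of like level, CALR stood at -0.32, DERL1 at -0.66 and ATF6 at -1.63 in clone 8. DERL3 stood at 0.35, ATF3 at 0.46 and ERN1 at -0.15. Wild type cells were far below the empty vector clones for HERPUD1 (9.66, the nearest 10.44), XBP1 (10.31, the nearest 10.62) and ERN1 (6.85, the nearest 7.02). HERPUD1 was also selected because clone 2 differed from clones 9 and 12 by a test of the difference itself, at -0.86 without clone 8. With clone 8 in the fit the difference was -0.58 and not called. Clone 8, of the same construct as clones 9 and 12, stood at -0.90 against the empty vector clones, as did clone 2 (-0.90). Construct and clone cannot be told apart here.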

How the results depend on the processing

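The comparison of knockdown clones with controls called no member under any of 20 alternatives to the fit with all clones. Some of these left out clones. Up to 0.17% of all features were called, the most without clone 8 and with the empty vector clones alone as controls. Construct V2LHS_62673 against the empty vector clones had none under 18, beside up to 3.04%. Array quality weights, which give clone 8 less weight, called 3 members in clone 2, 3 in wild type cells and 1 between clone 2 and construct V2LHS_62673, beside 4.2%, 4.25% and 3.28% of all features. Leaving out each clone in turn called 0 to 2, 0 to 3 and 0 to 1 members, beside 0% to 3.74%, 0% to 3.6% and 0% to 2.15% of all features. The median of the ER chaperone arm in construct V2LHS_62673 moved from -0.1911 to 0.0082 with weights and ranged from -0.2674 to -0.0159 when 1 clone was left out. From the first array of clone 2 alone, the ER chaperone arm stood at -0.1305 against the empty vector clones and at -0.1032 against construct V2LHS_62673. The cause was not tested.

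Signs turned for genes that were not called. Between knockdown clones and controls, ATF4 was -0.1064, HSPA5 -0.0361 and ERN1 -0.0442 with weights, HSPA5 was -0.0263 after median centring and -0.046 against the empty vector clones alone, and without clone 8 against the empty vector clones alone ATF4 was -0.1104, ATF6 0.0164, HSPA5 -0.1407 and ERN1 -0.0751. Leaving out 1 clone gave ATF4 from -0.057 to 0.2436, HSPA5 from -0.0531 to 0.1034 and ERN1 from -0.0292 to 0.1391. In construct V2LHS_62673, ATF4 was -0.0432 and HERPUD1 0.0461 with weights, and leaving out 1 clone gave ATF4 from -0.0549 to 0.3271, ATF6 from -1.1244 to 0.0379 and HSPA5 from -0.13 to 0.0955. In clone 2, ATF6 was 0.0798 from its first array and ran from -0.1114 to 0.0226 with 1 clone left out. Between the constructs, XBP1 was 0.0432 after median centring and 0.0219 from arrays 2 and 3 of clone 2, DDIT3 was -0.1029, ATF6 -0.0447 and CHAC1 -0.0662 with weights, and DDIT3 was -0.1282 and CHAC1 -0.411 from the first array. Leaving out 1 clone there gave XBP1 from -0.1186 to 0.0311, ATF6 from -0.0647 to 1.0976 and CHAC1 from -0.2342 to 0.2459.

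Without clone 8, quantile normalization or median centring called 1 member each in clone 2 and in wild type cells and 0 between the constructs. The shares of all features were 2.53%, 1.8% and 1.37% after quantile normalization, and 2.48%, 2.52% and 1.13% after median centring. No filter called 1 in clone 2 and 0 between the constructs, beside 1.97% and 0.892% of all features. Arrays 2 and 3 of clone 2 alone called 5 in each, beside 9.12% and 8.56% of all features, and its array 1 alone called 3 in clone 2 (DDIT4, DNAJB9 and XBP1), beside 5.37%, called 0 between the constructs and put the ER chaperone arm at -0.1305 in clone 2. When a further clone was left out, the counts ranged from 0 to 5 in construct V2LHS_62673, 0 to 6 in clone 2, 0 to 6 in wild type cells and 0 to 1 between the constructs. The median of the ATF4 and DDIT3 arm kept its sign under every alternative without clone 8 in the comparisons with the empty vector clones, from -0.52 to -0.17 in construct V2LHS_62673, -0.43 to -0.30 in clone 2 and -0.36 to -0.30 in wild type cells.

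Signs of uncalled genes turned here as well. From the first array of clone 2, ATF6 was 0.0189 and HERPUD1 0.0077 between knockdown clones and controls, ATF6 was 0.0798 in clone 2, and between the constructs DDIT3 was -0.2542, ATF6 0.0418 and CHAC1 -0.3378. From its arrays 2 and 3, HSPA5 was 0.0398 and DDIT4 0.1084 between the constructs, and after quantile normalization DDIT3 was -0.0023. Leaving out a further clone gave, between knockdown clones and controls, ATF4 from -0.1104 to 0.0096, ATF6 from -0.084 to 0.0164 (0.0053 without the second empty vector clone, 0.0049 without clone 2), HSPA5 from -0.1407 to 0.0087, CEBPG from -0.2392 to 0.015 and HERPUD1 from -0.4006 to 0.1628. In construct V2LHS_62673 it gave ATF4 from -0.1199 to 0.0184, ATF6 from -0.0466 to 0.0873 and HERPUD1 from -0.3081 to 0.225, and in clone 2 ATF6 from -0.1114 to 0.0226 (0.0084 without the first empty vector clone). Among the called genes of the wider lists SELENOS turned to -0.0983 in clone 2 from its first array. Between the constructs a further clone left out gave DDIT3 from -0.3108 to 0.3431, HSPA5 from -0.1149 to 0.0508, DDIT4 from -0.8579 to 0.371 and CHAC1 from -0.3644 to 0.5957.

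The arrays of clone 2 and the empty vector clones share the replicate numbers 1 to 3. Deviations from the group means correlated at r = 0.03, -0.15 and -0.24 in same-numbered arrays and at -0.08 to 0.23 in other pairs. With 3 same-numbered pairs, a shared batch cannot be told from its absence. With every array as a replicate and the replicate number as a block, 7 members were called in clone 2, beside 8.47% of all features. That fit counts the 3 arrays of 1 clone as 3 replicates.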
